A study of Mus musculus with 8 samples.

Results

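A set of 9 genes that are best known from signaling in blood cells was examined in sorted intestinal tuft cells, namely Ptprc, Siglecf, Lyn, Ptpn6, Inpp5d, Plcg2, Vav1, Rac2 and Fyb. The genes were taken by symbol, all 9 were found among the 35199 genes of the count table, and all 9 passed the filter on low counts that left 12849 genes for testing. Every one of them was detected in every library, from 670 counts for Ptprc in its poorest library to 76518 for Fyb in its richest. No difference in their levels between scopolamine-treated and sham mice passed the test, by which 0.0% of the 12849 genes were called.

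Tuft cells were isolated from the small intestine of Dclk1-DTR-ZSgreen mice aged 8 to 10 weeks at pump implantation. Both groups carried this BAC transgene, in which Dclk1 regulatory sequence drives the ZSgreen reporter together with a diphtheria toxin receptor. The sort was thus meant to select cells that use the Dclk1 promoter of the transgene, and RNA of other cells was also present, as given below. The treated group (n = 4 mice) was given scopolamine, which blocks muscarinic receptors, from an implanted osmotic pump for 7 days, the daily dose being 0.5 mg per kg body weight, and the sham group (n = 4 mice) received sodium chloride for the same time. Live, EPC-high, ZSgreen-positive cells were sorted, 1 library was made from each mouse, and mice are numbered 1 to 4 within each group in the order of deposition. Library totals ran from 14343362 to 41428916 counts, with every sham library deeper than every scopolamine library, and depth therefore cannot be told apart from treatment. Sham 1 and sham 3 were amplified from 200 pg of RNA over 15 cycles, and the other 6 libraries from 1000 pg over 10 cycles. Mouse identifiers fall into series M (scopolamine 1 to 3 and sham 1) and series N (scopolamine 4 and sham 2 to 4), a split that nearly follows treatment. Levels are given in CPM, counts scaled to the library total with TMM factors, which correct for differences in library composition.

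The products of these genes form successive steps of one kind of signaling. In leukocytes, a Src family kinase such as Lyn phosphorylates receptors and adaptors, and Ptprc (CD45) regulates these kinases by removing an inhibitory phosphate from them. Siglecf, a sialic acid-binding lectin of the cell surface, carries inhibitory motifs that recruit the tyrosine phosphatase Ptpn6 (SHP-1), while the lipid phosphatase Inpp5d (SHIP1) converts the phosphoinositide that PI3 kinase makes. Plcg2 cleaves a membrane phosphoinositide and so raises calcium, Vav1 loads Rac GTPases such as Rac2 with GTP, and the adaptor Fyb (ADAP) links receptor signaling to adhesion and actin. Tuft cells are epithelial, not hematopoietic, yet several of these genes are known in them, and Siglecf is widely used as a surface marker of mouse intestinal tuft cells.

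Promoter sequence was inspected because the 9 genes are known together from blood cells, in which ETS factors act on many promoters. RefSeq start sites (GRCm38.p6) matched 7 of the 9 genes and gave 8 promoters, since Ptprc has 2, while Lyn and Rac2 had no entry in the set of promoters used here. The 6 letters GGAAGT, a common form of the ETS core, were searched on both strands of the 250 bases before each start. They were present in 6 of the 8 promoters, against 19.7% of 32851 promoters in all, and these belonged to 5 genes (Inpp5d, Siglecf, Vav1, Ptpn6 and Ptprc). The 2 Ptprc windows overlap, and the only match in the second is the site that lies 58 bases before the first start, so that site is counted in both. These letters were chosen after the sequences had been read, so the count is a description and was not tested. In Vav1, Inpp5d and Siglecf the match began 9, 18 and 22 bases before the start, as the following 100 bases before each start show. Capitals mark GGAAGT or its reverse complement ACTTCC, each sequence is written 5′ to 3′ on the strand of the gene, and Ptprc is shown as the member with a match further away, at 58 bases.
Vav1 (chr17:57279000-57279099, plus strand): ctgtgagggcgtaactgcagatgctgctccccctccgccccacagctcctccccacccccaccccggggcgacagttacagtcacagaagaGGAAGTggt
Inpp5d (chr1:87620212-87620311, plus strand): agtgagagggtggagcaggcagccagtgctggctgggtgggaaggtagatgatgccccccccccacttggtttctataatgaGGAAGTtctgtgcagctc
Siglecf (chr7:43351241-43351340, plus strand): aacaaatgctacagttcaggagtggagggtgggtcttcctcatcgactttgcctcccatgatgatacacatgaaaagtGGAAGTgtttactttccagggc
Ptprc (chr1:138175306-138175405, minus strand): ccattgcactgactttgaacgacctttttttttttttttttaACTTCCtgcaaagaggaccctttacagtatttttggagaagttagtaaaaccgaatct

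Ptpn6 held the letters at 101 and 190 bases before its start, whereas the windows of Plcg2 and Fyb did not hold them. The Fyb window (chr15:6579597-6579846) lies inside the span of the gene given below, and both Ptprc windows lie inside that of Ptprc. For Fyb and Ptprc the starts used are therefore internal, and the bases before the outermost 5′ end were not searched. The RUNX letters TGTGGT and the octamer ATGCAAAT, searched the same way, were found in none of the 8 promoters, against 14% and 1.6% of all promoters.

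The 9 genes were set beside marker genes per kilobase of exon, the scale on which levels of different genes can be compared. Tuft cell markers such as Dclk1, Trpm5 and Pou2f3 were detected in every library, and the 18 on the list had a median level of 183 CPM per kilobase, beside 166 CPM per kilobase for the 9 genes. Other epithelial markers had medians of 26.2 (enterocyte), 48.4 (goblet and Paneth) and 25.0 CPM per kilobase (enteroendocrine). The highest of each list, Fabp1, Tff3 and Sct, stood at 5861, 720.6 and 360.5 CPM per kilobase. A high level on this scale therefore does not by itself assign a gene to tuft cells, and the cell of origin was not tested. Median levels were 0.218 CPM per kilobase for 16 pan-leukocyte markers, 0.728 for 21 markers of intraepithelial T cells, 0.301 for 10 markers of B and plasma cells, 0.158 for 14 markers of macrophages and dendritic cells and 0.0901 for 9 markers of platelets and erythroid cells. Among all of these blood cell markers the highest mean over the 8 libraries was that of Gzma, a cytotoxic granule protease, at 18.5 CPM per kilobase, and 8 of the 9 genes had a mean above it. Ptprc was the exception at 4.43 CPM per kilobase. Library by library, the same 8 genes lay above the highest blood cell marker in 6 of 8 libraries. In scopolamine 2 and sham 1, Gzma reached 49.0 and 66.5 CPM per kilobase, above Lyn (37.2 and 45.1) and Inpp5d (38.7 and 46.0) as well as Ptprc, so that 6 of the 9 genes lay above it there. Siglecf is also a classical marker of eosinophils, and 6 of 8 eosinophil markers, Epx, Prg2, Prg3, Ear1, Ear6 and Ccr3, had no count in any library, which with a floor of 3 counts limits each to 0.0729 to 0.212 CPM. The mast cell list was carried by Kit at 85.4 CPM, a receptor that other cell types also express, with no count anywhere for Cma1, Tpsb2, Fcer1a and Ms4a2. The next highest of that list, the mast cell protease Mcpt1, was at 14.2 CPM in scopolamine 4 and at most 0.0705 CPM in any other library, and Mcpt2 (6.29 CPM), Mcpt4 (2.41 CPM) and Cpa3 (1.47 CPM) likewise stood apart in scopolamine 4, the library in which 7 of the 9 genes were lowest. Their part in those low levels was not tested.

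**Figure D1:**
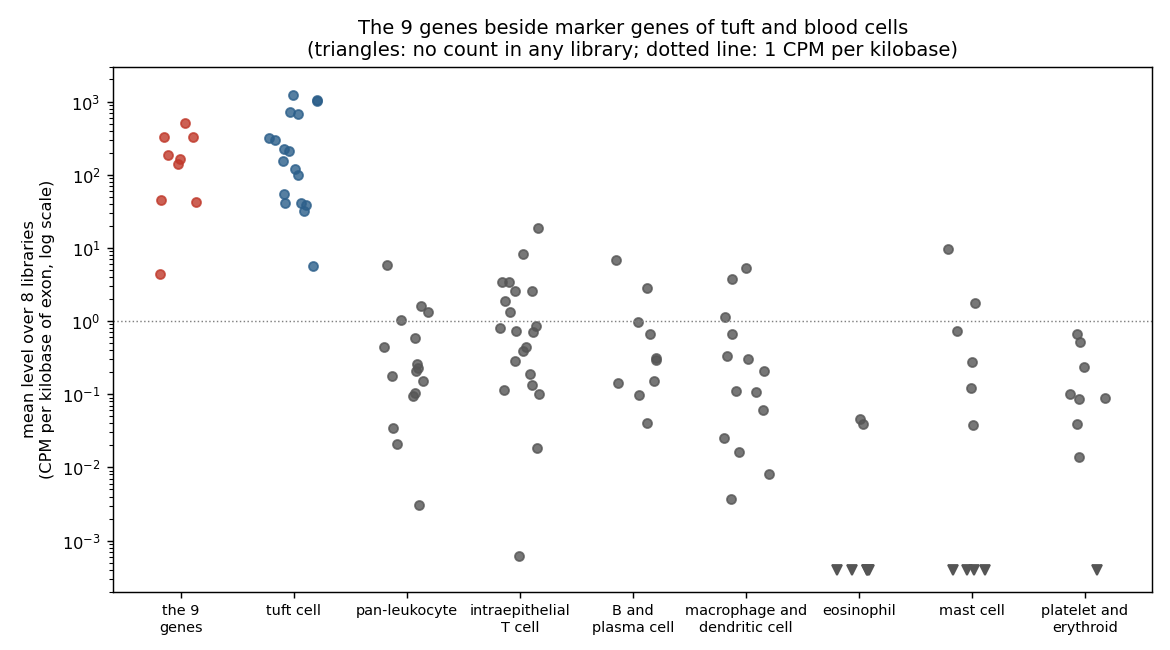
Mean level over the 8 libraries, in CPM per kilobase of exon on a log axis, of the 9 genes (red), 18 tuft cell markers (blue) and markers of 7 kinds of blood cell (grey), 1 point per gene. Markers of other epithelial cells are not shown. Triangles at the bottom stand for genes with no count, and 8 of the 9 red points lie above every grey point, the highest of which is Gzma at 18.5.

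Blood cell RNA was nevertheless present in unequal amounts. The summed level of the T cell markers, led by Gzma and the chemokine Ccl5, was 59.9, 155, 34.6 and 40.4 CPM in scopolamine 1 to 4 and 170, 8.17, 6.19 and 5.76 CPM in sham 1 to 4. The summed pan-leukocyte markers, led by the tetraspanin Cd37 and by Laptm5, ranged from 24.5 to 42.3 CPM with scopolamine and from 25.8 to 64.2 CPM in sham. B and plasma cell markers, led by Cd79b and Ighm, summed to between 8.82 and 17.4 CPM with scopolamine and between 18.8 and 31.1 CPM in sham, and macrophage and dendritic markers, led by Lyz2 and Cd14, summed to between 19.9 and 37.7 CPM and between 15.3 and 21.5 CPM. Platelet and erythroid markers, led by Alas2 and Hbb-bs, summed to between 1.70 and 4.40 CPM with scopolamine and between 0.124 and 0.875 CPM in sham, so the groups did not overlap for these markers or, in the opposite direction, for those of B and plasma cells. Eosinophil markers, led by Il5ra and Ear2, summed to at most 0.537 CPM, and stromal and endothelial markers, led by Pdgfrb and Col1a1, to at most 14.1 CPM.

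Siglecf (ENSMUSG00000039013, chromosome 7 from 43351341 to 43359531, plus strand) stood at 549, 433, 801 and 275 CPM in scopolamine 1 to 4 and at 666, 522, 499 and 387 CPM in sham 1 to 4. The highest and the lowest library were both in the scopolamine group, and the sham values lay between them. The log2 fold change of scopolamine over sham was -0.01 (standard error 0.29, 95% interval -0.65 to 0.63, edgeR quasi-likelihood test with Benjamini-Hochberg adjusted p = 0.996).

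Ptprc (ENSMUSG00000026395, chromosome 1 from 138062861 to 138175708, minus strand), the receptor phosphatase that defines leukocytes in flow cytometry, was measured at 79.2, 92.6, 130 and 31.7 CPM in scopolamine 1 to 4. Sham 1 to 4 gave 121, 53.6, 77.1 and 64.9 CPM. The groups overlapped fully, and a 4.09-fold range between the libraries was the widest of the 9 genes. Its log2 fold change of 0.07 had the largest standard error of the set, 0.39, with a 95% interval of -0.78 to 0.93 and an adjusted p of 0.991 (edgeR). In series M the 3 scopolamine mice averaged 100 CPM beside 121 in the only sham mouse, and in series N the only scopolamine mouse had 31.7 CPM beside a mean of 65.2 in 3 sham mice. Scopolamine was thus lower within both series (log2 ratios of -0.26 and -1.04), and a fit with series as a covariate gave a log2 fold change of -0.65 (unadjusted p = 0.0472, edgeR adjusted p = 0.862). Other settings moved it the other way, to 0.49 with amplification cycles as a covariate (adjusted p = 0.946) and to 0.46 without the 200 pg libraries (adjusted p = 0.841).

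Sham 1, with the highest T cell marker sum, was the second highest library for Ptprc, and scopolamine 3, the highest, had a T cell marker sum of 34.6 CPM. Where that sum was 8.17 CPM or lower, in sham 2 to 4, Ptprc stood at 53.6 to 77.1 CPM. In sham 2 to 4 the B and plasma cell markers summed to 31.11, 22.69 and 22.61 CPM. Pan-leukocyte markers summed to 26.23, 37.15 and 25.78 CPM there, so a low T cell sum is not a low sum for every kind of leukocyte. Without scopolamine 2 and sham 1, the libraries richest in T cell markers, the log2 fold change of Ptprc was 0.29 (adjusted p = 0.942). How much of the Ptprc signal came from leukocytes was not tested, and in bulk RNA fewer cells of a type and less RNA per cell cannot be told apart. Both 200 pg sham libraries averaged 98.8 CPM, and both 1000 pg sham libraries 59.3 CPM.

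**Figure D2:**
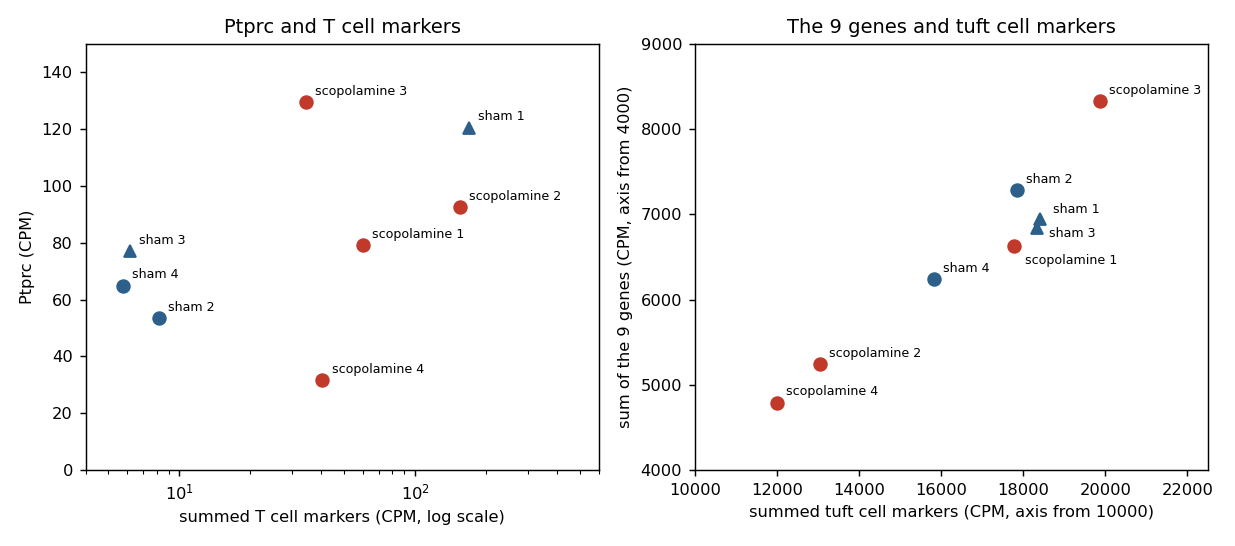
Left, Ptprc in CPM against the summed T cell markers in CPM (log axis). Right, the sum of the 9 genes against the summed tuft cell markers, both in CPM with axes that do not start at 0, 1 point per library (red scopolamine, blue sham, triangles 200 pg). On the left, sham 2 to 4 have 53.6 to 77.1 CPM of Ptprc at the lowest T cell sums, with other leukocyte markers not shown. On the right, the sum of the 9 genes lies between 37.3% and 41.9% of the tuft cell sum.

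Lyn (ENSMUSG00000042228, chromosome 4 from 3678115 to 3813122, plus strand) was found at 221, 151, 201 and 127 CPM in scopolamine 1 to 4 and at 184, 192, 137 and 171 CPM in sham 1 to 4. Again the scopolamine libraries held both extremes. The difference was 0.04 on the log2 scale (standard error 0.20, interval -0.40 to 0.48, edgeR adjusted p = 0.992). On the opposite strand, 248 exonic bases of Lyn coincide with a lincRNA, Gm26857.

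Ptpn6 (ENSMUSG00000004266, chromosome 6 from 124720707 to 124738714, minus strand) reached 1338, 1170, 1901 and 1115 CPM in scopolamine 1 to 4 and 1297, 1777, 1526 and 1330 CPM in sham 1 to 4. Scopolamine 3 and sham 2 were the high libraries, and the others lay between 1115 and 1526 CPM. Group means were 1381 ± 360 and 1483 ± 221 CPM (SD, n = 4 each), scopolamine first. On the log2 scale the difference was -0.10 (standard error 0.19, edgeR adjusted p = 0.962). An antisense gene, Gm20531, shares 195 exonic bases with Ptpn6.

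Inpp5d (ENSMUSG00000026288, chromosome 1 from 87620312 to 87720507, plus strand) had the steadiest level of the set, with 386, 294, 363 and 315 CPM in scopolamine 1 to 4 and 350, 382, 344 and 311 CPM in sham 1 to 4. Its highest library exceeded its lowest by 1.31-fold. The narrow spread also gave the tightest estimate of the treatment difference, a log2 fold change of -0.03 (standard error 0.14) with an interval of -0.34 to 0.27, which on the linear scale is 0.792 to 1.21 (edgeR adjusted p = 0.991).

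Plcg2 (ENSMUSG00000034330, chromosome 8 from 117498291 to 117635142, plus strand) was present at 646, 527, 679 and 470 CPM in scopolamine 1 to 4 and at 606, 668, 768 and 522 CPM in sham 1 to 4. It was the only one of the 9 genes whose highest level was in a sham library, sham 3. The log2 fold change was -0.14 (standard error 0.17, edgeR adjusted p = 0.914).

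Vav1 (ENSMUSG00000034116, chromosome 17 from 57279100 to 57328031, plus strand) showed 606, 586, 811 and 450 CPM in scopolamine 1 to 4. Sham 1 to 4 gave 693, 750, 452 and 538 CPM, so that the lowest values of both groups were nearly equal. The means of 613 ± 149 and 608 ± 137 CPM (SD, n = 4 each) corresponded to a log2 fold change of 0.01 (standard error 0.21, edgeR adjusted p = 0.996).

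Rac2 (ENSMUSG00000033220, chromosome 15 from 78559167 to 78572783, minus strand) stood at 892, 664, 1407 and 637 CPM in scopolamine 1 to 4 and at 1106, 1083, 1147 and 1261 CPM in sham 1 to 4. Of the 4 scopolamine libraries 3 were below every sham library, and scopolamine 3 was above every sham library. The spread was 39.7% of the mean with scopolamine (899.7 ± 357 CPM, SD, n = 4) and 6.87% in sham (1149 ± 79.0 CPM, SD, n = 4). Rac2 had the largest difference of the 9 genes, a log2 fold change of -0.35 (standard error 0.23, interval -0.87 to 0.17), and it did not pass the test (edgeR adjusted p = 0.851). Leaving out scopolamine 3 moved it to -0.66 (edgeR unadjusted p = 0.00198, adjusted p = 0.891), and leaving out scopolamine 4 to -0.23 (adjusted p = 0.992). Within mouse series M and N the log2 ratios were -0.16 and -0.87.

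Fyb (ENSMUSG00000022148, chromosome 15 from 6522853 to 6663313, plus strand) was measured at 1917, 1330, 2033 and 1372 CPM in scopolamine 1 to 4 and at 1925, 1852, 1895 and 1660 CPM in sham 1 to 4. Scopolamine 2 and 4 lay below all sham libraries, while scopolamine 1 and 3 lay among or above them. The log2 fold change was -0.14 (standard error 0.16, edgeR adjusted p = 0.913). Fyb shares 231 exonic bases on the same strand with the pseudogene Gm7666, which the table lists at 60.1 CPM, and 319 bases on the other strand with Gm2245, so a small part of its counts is uncertain.

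**Figure D3:**
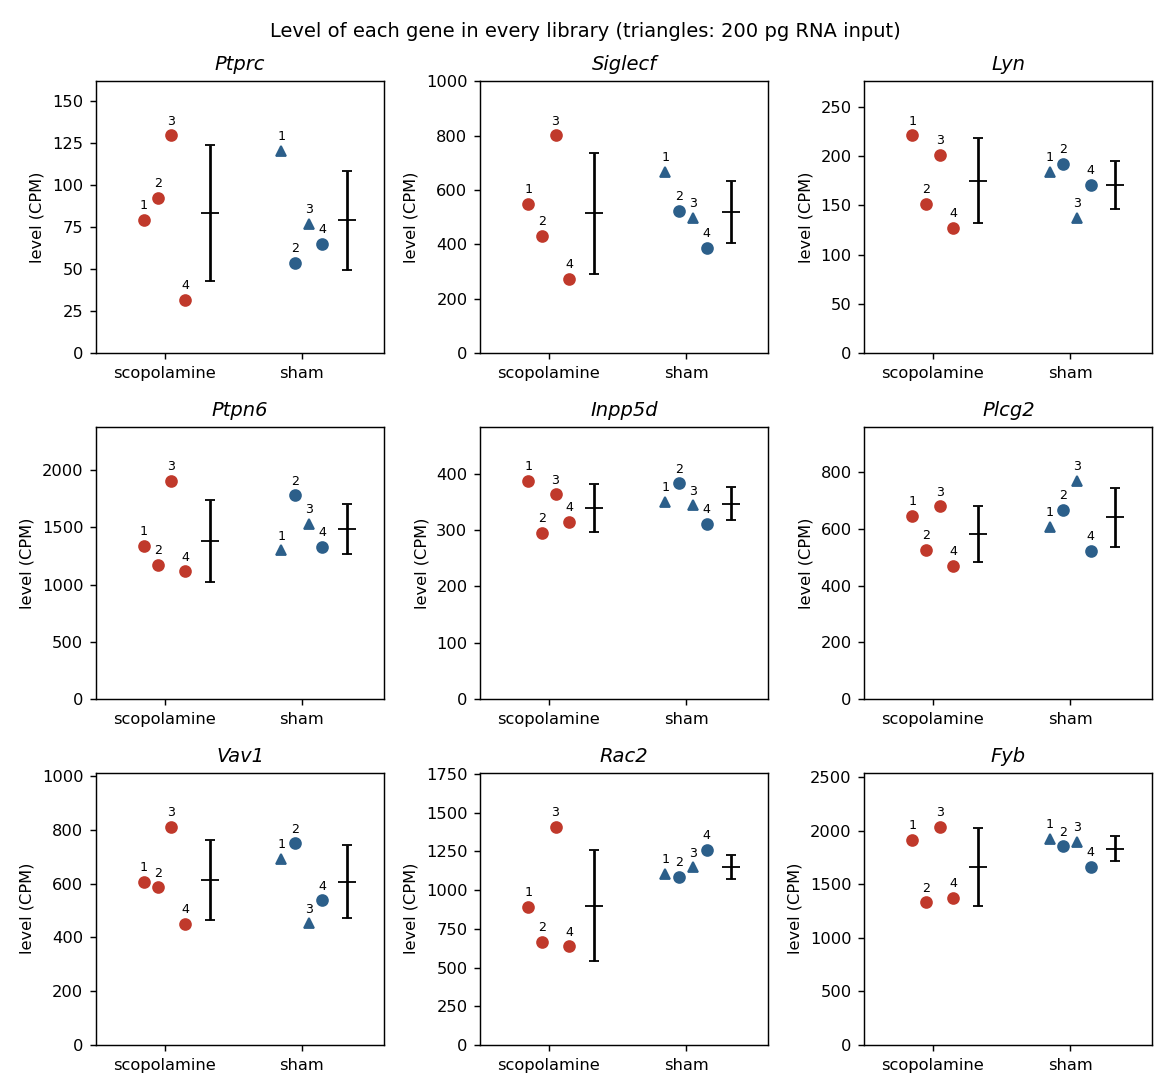
Level of each of the 9 genes in CPM (axes from 0) in 4 scopolamine (red) and 4 sham (blue) libraries, numbered by mouse, with the mean and SD of each group in black and triangles for 200 pg libraries. Scopolamine 3 is the highest library for 6 genes and scopolamine 4 the lowest for 7, and the groups overlap for all 9.

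No member was called at an adjusted p under 0.1, where the share of all 12849 genes called was 0.0%. At an unadjusted p under 0.05 the count was 0 of 9 (5.99% of all genes, 770), and it was also 0 of 9 for groups that did not overlap in CPM (3.88% of all genes). The unadjusted count did not hold in every alternative, since Ptprc passed 0.05 with mouse series as a covariate and Rac2 without scopolamine 3. DESeq2, which called 190 genes in all, and limma-voom, which called 0, called no member either. The 9 log2 fold changes ran from -0.35 for Rac2 to 0.07 for Ptprc, 3 of them above 0 and 6 below, and their median was -0.03 beside -0.01 for all genes tested. Their median standard error of 0.20 was smaller than the 0.42 of all genes. Markers of other epithelial cells were unequal at the same time: enterocyte markers, led by Fabp1 and Apoa1, summed to 4878 ± 1842 CPM with scopolamine and 3535 ± 1953 CPM in sham, goblet and Paneth markers, led by Tff3 and Zg16, to 2033 ± 1157 and 769 ± 520 CPM, and enteroendocrine markers, led by Sct and Chgb, to 701 ± 338 and 532 ± 589 CPM (SD, n = 4 each). Single libraries carried some of these means, since sham 3 held 1412 CPM of enteroendocrine markers beside 178 to 269.6 in the other sham libraries, and sham 1 held 6465 CPM of enterocyte markers beside 2509 to 2630 CPM. The sums also rest on a few abundant genes. Gene by gene, log2 fold changes had a median of 1.71 over 10 enterocyte markers, 1.63 over 10 goblet and Paneth markers and 0.86 over 9 enteroendocrine markers, with unadjusted p under 0.05 for 4, 2 and 0 of them, all higher, and none called. The 18 tuft cell markers had a median log2 fold change of -0.18, with 2 at an unadjusted p under 0.05, both lower (Tas1r3 -1.27 and Hpgds -0.57), and none called. The sugar transporter Slc5a1, for one, was at 130 ± 54.4 CPM with scopolamine and 22.7 ± 16.8 CPM in sham (log2 fold change 2.51, edgeR adjusted p = 0.812). Their part in the levels of the 9 genes was not tested.

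**Figure D4:**
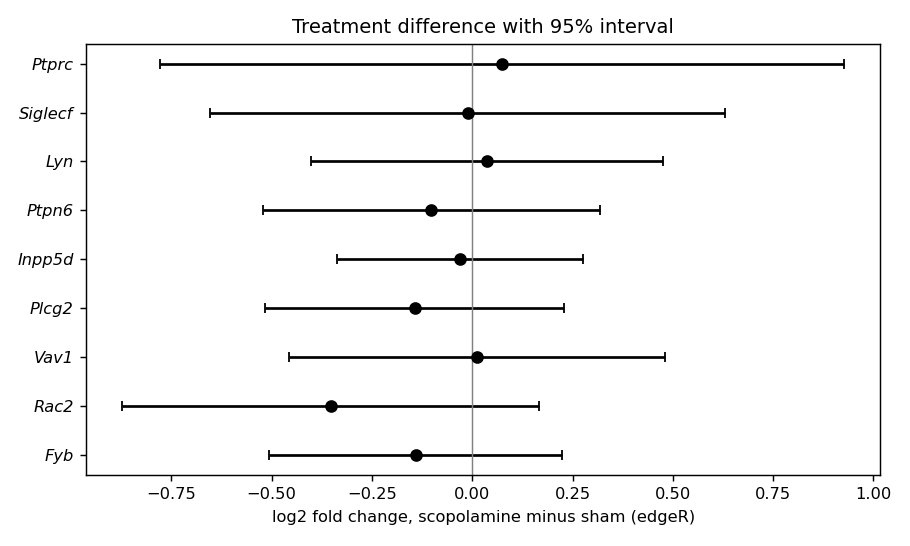
Log2 fold change of scopolamine over sham for each of the 9 genes, with 95% intervals from edgeR (n = 4 libraries per group). Every interval spans 0, from the narrowest for Inpp5d (-0.34 to 0.27) to the widest for Ptprc (-0.78 to 0.93).

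The differences between mice were shared by most of the 9 genes. Scopolamine 3 was the highest library for 6 of them and above the gene's own median for all 9, whereas scopolamine 4 was the lowest for 7 and above the median for none. Tuft cell markers followed the same order at its ends. Led by Dclk1 and Avil, they summed to 17780, 13060, 19870 and 12010 CPM in scopolamine 1 to 4 and to 18410, 17860, 18330 and 15820 CPM in sham 1 to 4. The 9 genes together summed to 6635, 5247, 8326 and 4792 CPM in scopolamine 1 to 4 and to 6949, 7281, 6845 and 6245 CPM in sham 1 to 4.

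Expressed as a percentage of the tuft cell marker sum of the same library, the 9 genes together amounted to 37.3, 40.2, 41.9 and 39.9% in scopolamine 1 to 4 and to 37.7, 40.8, 37.3 and 39.5% in sham 1 to 4. The coefficient of variation over the 8 libraries was 4.32% on this scale and 17.2% in CPM. This scale was added after the counts had been seen. Fyb tracked the markers most closely, at 10.2 to 11.4% of their sum in every library, with a coefficient of variation of 3.83% beside 15.3% in CPM. In sham its share was 10.4% ± 0.0732 (SD, n = 4). For 8 of the 9 genes the spread was smaller on this scale. Inpp5d was the exception, with 12.6% beside 9.91% in CPM, and Ptprc remained the most variable at 35.2%. Because both quantities come from the same library, they share its depth and its content of other cells.

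Over the 8 libraries, Suox, Alox5 and Fbxo25 had the profiles most like the mean profile of the 9 genes, among 8145 genes with a mean of at least 10 CPM (Pearson r = 0.975, 0.974 and 0.967 for log2 CPM, given as a description). Alox5, the 5-lipoxygenase that begins leukotriene synthesis, stood at 1336, 980.3, 1475 and 778.5 CPM in scopolamine 1 to 4 and at 1323, 1360, 1215 and 1189 CPM in sham 1 to 4. Like most of the 9 genes, all of Suox, Alox5 and Fbxo25 were highest in scopolamine 3 and lowest in scopolamine 4.

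Ordered by level per kilobase of exon, Ptpn6 came first at 511 ± 100 (SD over 8 libraries), followed by Rac2 at 330 ± 88.3, Fyb at 325 ± 49.5, Siglecf at 185 ± 58.5, Vav1 at 166 ± 36.0, Plcg2 at 142 ± 23.1, Inpp5d at 45.1 ± 4.47, Lyn at 42.5 ± 8.02 and Ptprc at 4.43 ± 1.79 CPM per kilobase. Among all genes with a count and an exon length, including those that the filter removed, Ptpn6 was at the 99.5th percentile and Ptprc at the 72.3rd. Neighbours in this order were not all distinct. Rac2 exceeded Fyb in 4 of 8 libraries, Siglecf exceeded Vav1 in 4 of 8, and Inpp5d exceeded Lyn in 5 of 8, whereas the step from Plcg2 to Inpp5d (3.15-fold) and that from Lyn to Ptprc (9.59-fold) were present in 8 of 8. Transcript choice affected the order. With the longest transcript as length, Fyb came first at 655 CPM per kilobase and Ptpn6 second at 620, and Ptprc, whose combined exons span 18313 bases and whose longest transcript has 5740, rose to 14.1 CPM per kilobase but remained last. On that length Plcg2 stood at 142, Inpp5d at 69.5 and Lyn at 50.0 CPM per kilobase. The steps from Plcg2 to Inpp5d and from Lyn to Ptprc were therefore smaller.

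To see which relative of each gene family the sorted cells carried, 8 of the 9 genes were set against their close relatives as a share of the summed level per kilobase. In 7 of these 8 families the gene of the set held the largest share. Siglecf made up 99.5% ± 0.320 of the Siglec genes counted with scopolamine and 99.6% ± 0.183 in sham (SD, n = 4 each), with Siglece, Siglecg, Siglec1, Cd22 and Cd33 each at 0.242 CPM per kilobase or lower. Ptpn6 made up 98.5 and 98.4% of its pair with Ptpn11 (SHP-2), the widely expressed relative. Plcg2 made up 99.6 and 99.8% beside Plcg1, and Fyb at least 99.99% in every library beside Fyb2, which had at most 1 count per library. Vav1 held 96.1% ± 2.17 and 96.5% ± 1.51, with Vav3 at 5.17 and Vav2 at 0.786 CPM per kilobase.

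Inpp5d and Rac2 were the larger partners by less. Inpp5d held 85.6% ± 3.43 with scopolamine and 88.8% ± 3.52 in sham, the rest being Inppl1 (SHIP2). Rac2 held 88.4, 79.0, 90.6 and 78.7% in scopolamine 1 to 4 and 90.3, 90.9, 88.3 and 90.6% in sham 1 to 4, beside the ubiquitous Rac1 and a little Rac3. Scopolamine 2 and 4 were therefore low, the same libraries in which Rac2 itself was lowest, and the other 2 matched the sham mice. The mean share of Rac2 was 84.2% ± 6.21 with scopolamine and 90.0% ± 1.20 in sham, a difference of -5.85 percentage points (exact two-sided permutation test, p = 0.2, adjusted over the 8 families 0.838). Rac1 went the other way in level, from 133 ± 22.1 CPM in sham to 176 ± 41.9 CPM with scopolamine (SD, n = 4 each), a log2 fold change of 0.40 (standard error 0.21) that did not pass the test either (edgeR adjusted p = 0.812).

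Ptprc was the exception. Among the receptor phosphatases compared, Ptprc held 15.9% ± 5.86 with scopolamine and 14.6% ± 2.58 in sham, and its level per kilobase of combined exons was below those of Ptpre (9.17), Ptpra (8.27) and Ptprj (6.45). This order depends on length. With the longest transcripts Ptprc (14.1 CPM per kilobase) stayed below Ptpra (16.9) and Ptpre (16.2) but came above Ptprj (7.06), and its share rose to 25.2%. With 4 mice against 4 the exact permutation test over 70 assignments cannot give a p below 0.0286, or 0.229 once adjusted over 8 families for a single family that stands apart. The shares are therefore a description, and whether they differ with treatment could not be decided by this test.

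**Figure D5:**
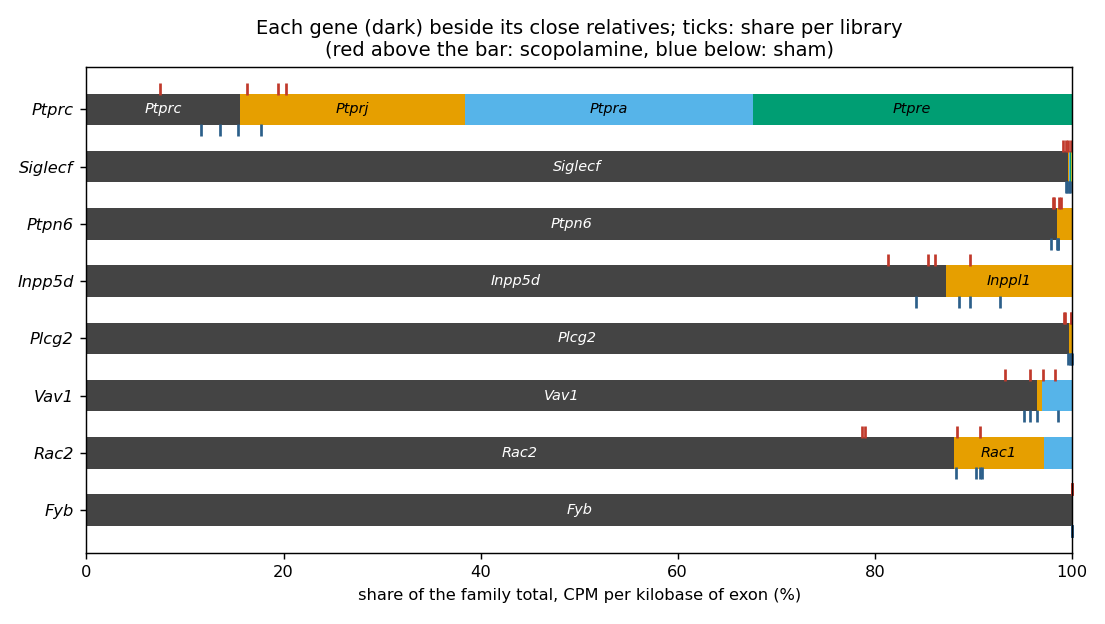
Share of the family total, in percent of the summed CPM per kilobase of exon, held by each of 8 genes (dark) and by its close relatives (colors) as means over 8 libraries, with ticks for the share in each scopolamine (red, above) and sham (blue, below) library. The dark bar is the largest piece in 7 of the 8 families, while Ptprc holds 15.6% of its own.

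Other genes of the same pathways were taken from 6 lists with 124 genes, of which all were in the table and 90 were tested. None was called by edgeR, and 5 had an unadjusted p under 0.05, which is 5.56% of those tested beside 5.99% of all genes. These were Frk, Shc1, Inpp5a, Rasgrp1 and Wipf1, each with a fold change above 0. Over the 90 genes, log2 fold changes had a median of -0.07. DESeq2 called 1 gene of the lists, Wipf1, a partner of the actin regulator WASP, at a mean of only 1.84 CPM.

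Within the lists, some genes were abundant and others near 0. Of 24 receptors, 13 were tested, and Cd47, Cd300lf and Ptpre had the highest CPM at 436, 355 and 93.5, while the signaling chains Fcer1g and Tyrobp, with which many leukocyte receptors pair, were at 1.002 and 0.641 CPM. On the list of 17 Src and Tec family kinases and their partners, Bmx stood at 354 CPM and Csk, the kinase that restrains Src kinases, at 205 CPM. Syk and Zap70, the kinases that carry the signal onward from immune receptors in leukocytes, were at 2.05 and 0.156 CPM, and the Tec kinase Btk at 0.855 CPM. Btk and Syk are the kinases that activate Plcg2 in B cells, and Plcg2 itself was at 611 CPM.

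Among 26 adaptors, Sh2d6 (1695 CPM), Skap2 (691 CPM) and Sh2d7 (626 CPM) were highest. Skap2 is a known binding partner of Fyb. Sh2d6 and Sh2d7 also stand on the tuft cell marker list. Blnk, the adaptor that joins Plcg2 to Btk in B cells, was at 128 CPM. The T cell adaptor Lat was at 0.328 CPM, and Lcp2 (SLP-76), to which Fyb and Vav1 bind in T cells, was at 0.542 CPM. Of 12 phosphatases and ubiquitin ligases, Ptpn18, Inpp5b and Ptpn1 led at 1550, 294 and 104 CPM, and of 19 genes around phospholipase C, Itpr2, Plcb2 and Plcb3 at 502, 402 and 78.2 CPM. Plcb2 is the phospholipase of taste transduction.

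In the list of 26 genes around Rac and related GTPases, Cdc42, Rhog and Arhgdia led at 433, 354 and 351 CPM. Dock2 and Coro1a, which act with Rac2 in leukocytes, were at 0.342 and 6.72 CPM. Rac2 is also a part of the phagocyte NADPH oxidase, of which Cyba was present at 250.4 CPM, whereas the catalytic subunit Cybb was at 1.01, Ncf1 at 0.449 and Ncf4 at 0.00304 CPM.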

How the data were processed

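RNA was measured in 8 libraries, 1 per mouse. The authors assigned reads to GRCm38 transcripts by kallisto pseudoalignment and summed them per gene with tximport. Per the submitters' processing notes, bcl2fastq 2.20 and kallisto 0.44.0 were used. The authors deposited estimated counts per gene, not normalized, as whole numbers, and rounding changed 0 of them. The annotation release and use of strand are not given in the sources used here, so genes that overlap can share reads. Treatment and cell number come from the labels, RNA input and cycles from the study's source data. Lengths and coordinates are from GENCODE M21 on GRCm38, in which 34887 symbols had an exon length and 312 had none. Promoters are from RefSeq (GRCm38.p6).

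Groups were compared with edgeR 4.0.16 in R 4.3.3 (TMM, filterByExpr, quasi-likelihood test, Benjamini-Hochberg adjusted p under 0.1, all 8 libraries, no covariate), the threshold of the study, which employed DESeq2. Family shares were compared by exact permutation tests for 8 genes. The family of Lyn and a few pathway genes are not reported here. The floor was 3 counts and covers counting error only. Replicates are separate mice. The alternatives tried were another tool (DESeq2 1.42.0 or voom in limma 3.58.1), other scalings, filters and covariates, thinning to the smallest total, and leaving out libraries. No pair of libraries of a group agreed within sampling noise (smallest chi-square per degree of freedom 67.5). On simulated data for this comparison with 12849 genes, edgeR recovered 13.2% of genes changed by 1 on the log2 scale, 39.4% by 2 and 75.8% by 4, with 4 false calls.

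The members and lists were chosen with earlier results of these data known. All members were to be named, with every close relative, the 3 highest genes of each pathway list, the 2 highest of each marker list, genes called and the 3 genes of most similar profile. Other genes named were chosen after their values were seen. For each gene of the lists that the filter removed, only levels are given.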

Additional observations from a re-analysis of the deposited data

Results flagged for a closer look

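In 58 groups of 4 libraries, 7 held a library that stood far from the other 3 by Dixon's test at the 95% level, where chance marks about 1 in 20 groups. No level of the 9 genes was among them. Of the family shares, Ptpn6 beside Ptpn11 was lowest in sham 1 at 97.89%, and Fyb beside Fyb2 in scopolamine 2 at 99.99%, where the whole difference is 1 count of Fyb2. The pan-leukocyte marker sum was low in scopolamine 1 at 24.54 CPM. Markers of intraepithelial T cells were high in sham 1 at 169.7 CPM, as were enterocyte markers in the same library at 6465 CPM. The B and plasma cell marker sum was high in scopolamine 4 at 17.35 CPM, and the enteroendocrine marker sum in sham 3 at 1412 CPM. Causes were not tested.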

How the results depend on the processing

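No member of the set had an adjusted p under 0.1 in any of 22 alternatives. The lowest was 0.631, for Rac2 without the filter on low counts. Over all genes, 0 were called by edgeR, 190 by DESeq2 (142 higher and 48 lower with scopolamine), 9 without the 200 pg libraries, 5 with amplification cycles as a covariate, 2 without the libraries highest in T cell markers and between 0 and 2 when each replicate was left out (1 without scopolamine replicate 4, 2 without sham replicate 1). In the pathway lists DESeq2 called 1 gene.

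Rac2 was lower with scopolamine in every alternative, from -0.66 to -0.23, while log2 fold changes near 0 changed sign. With tuft markers as library size the median of all genes tested moved to 0.21, and 8 of the 9 genes lay above 0 and only Rac2 below, with 0.12 for Siglecf, 0.067 for Ptpn6, 0.17 for Inpp5d, 0.047 for Plcg2 and 0.033 for Fyb. Relative to that shift 8 of the 9 genes lay below the median, and Ptprc was at 0.21. With the mouse ID series as covariate all 9 were below 0 (Ptprc -0.65, Lyn -0.17, Vav1 -0.21). With amplification cycles as covariate Siglecf was 0.18, Lyn -0.050 and Vav1 -0.070. Without the 200 pg libraries Siglecf was 0.16, Lyn -0.071 and Vav1 -0.089, and without the T cell marker-rich libraries Siglecf was 0.20 and Inpp5d 0.029. Siglecf was 0.0032 with DESeq2's size factors, 0.0029 with at least 10 counts in every library and 0.0094 after thinning to the smallest total, Ptprc was -0.049 in limma-voom, and Vav1 was -0.017 without a filter. The causes were not tested.

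When each replicate was left out, log2 fold changes ranged from -0.22 to 0.34 for Ptprc, -0.31 to 0.19 for Siglecf, -0.10 to 0.15 for Lyn, -0.30 to -0.0050 for Ptpn6, -0.10 to 0.024 for Inpp5d, -0.23 to -0.05 for Plcg2, -0.15 to 0.13 for Vav1 and -0.25 to -0.06 for Fyb. Differences in family share ranged from -0.200 to 4.08 percentage points for Ptprc, -0.235 to 0.0197 for Siglecf, -0.115 to 0.171 for Ptpn6, -4.68 to -1.71 for Inpp5d, -0.370 to -0.112 for Plcg2, -1.14 to 0.536 for Vav1, -8.00 to -4.02 for Rac2 and -0.0020 to 0.0 for Fyb. Without the 200 pg libraries the share of Ptpn6 differed by -0.117. No paired analysis was possible because the replicate numbers were given in order of deposition and no label ties a scopolamine mouse to a sham mouse. Depth limits markers near the floor of 3 counts, not the 9 genes.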
